A study of Homo sapiens with 22 samples.

Results

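The genes described here build, bind or cut the extracellular matrix: collagens, laminins, other matrix glycoproteins and proteoglycans, integrin chains, matrix metalloproteinases (MMP), ADAMTS proteases, their tissue inhibitors (TIMP) and the cross-linking enzyme LOXL2. They were chosen by gene symbol, and 104 of the 15797 genes in the deposited table belong to them: 51 matrix genes, 21 receptor genes, 29 genes of proteases, inhibitors and cross-linking, and 3 genes with an integrin-like symbol that encode no integrin chain (ITGB1BP1, ITGB1BP2 and ITGB3BP). RefSeq holds 141 protein-coding genes with such symbols, and the rest were not analysed here.

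Total RNA was sequenced from untreated HEK293 clones, a human embryonic kidney line, grown short of full confluency. The study asked how deletion of the B domain of coagulation factor VIII, a large secreted clotting protein, bears on its secretion. The BDD group holds 6 clones with B-domain deleted factor VIII (clones 1, 2, 7, 12, 13 and 27) and the FL group 4 clones with the full-length protein (clones 4, 7, 9 and 10), each sequenced as libraries a and b. A further line titled HEK 28 also has 2 libraries; its genotype label reads full length, while every sample's cell line label reads HEK28, so it was kept apart and untested. Neither the transgene's promoter nor the origin of the clones is given in the sources used here, nor whether libraries a and b were separate cultures. P-values between BDD and FL therefore measure the spread between these clones. The F test used further below instead sets clones against the spread between libraries a and b. Both libraries of BDD clone 2 carry the word oldbdd in their titles.

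Values are log2 CPM, the log2 of a gene's reads scaled to library size, averaged over the 2 libraries of a clone, and the clone is the replicate. Factor VIII RNA (F8), which does not tell the 2 constructs apart at gene level, was at 7.74, 6.19, 3.75, 7.43, 2.10 and 5.45 log2 CPM in BDD clones 1, 2, 7, 12, 13 and 27. It was at 7.87, 7.11, 7.42 and 7.79 in FL clones 4, 7, 9 and 10 and at 8.90 in HEK 28, so no line here is free of F8. The libraries held 4951081 to 6197084 recovered reads. Libraries a and b of BDD clone 2 stood apart from each other: the SD of their log2 difference over genes was 0.88, against 0.36 to 0.60 in the other lines. Without this clone 36 members were called higher and 7 lower, a fit for which no share over all genes is given. Of 16 HEK293 kidney and neuronal markers 14 were in the table, led by the neurofilament genes NEFM and NEFL; their summed level was 1479 to 2653 CPM in BDD clones and 5311 to 5741 CPM in FL clones. NEFM and NEFL, which carry that sum, were lower in BDD clones (-1.79 and -1.08) with 3 other markers, while KRT8 (1.83), KRT18 (0.97) and ENO2 (1.40) were higher, and the list's median difference was 0.01; the part of these differences in the results below was not tested. The defining markers of fibroblasts (PDGFRA, PDGFRB, THY1, DCN, LUM, COL1A2, FAP), endothelium (PECAM1, CDH5, KDR, TEK, VWF) and leukocytes (PTPRC, CD3E, ITGAM, ITGAX, LYZ) have no row in the table used here. In bulk RNA, fewer cells of a type and less RNA per cell cannot be told apart.

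The extracellular matrix is a mesh of secreted proteins that surrounds cells. Collagen chains wind into triple helices that form fibrils, beaded filaments or the sheet-like network of basement membranes, in which laminins, each built of an alpha, a beta and a gamma chain, form a second network tied to the collagen by nidogens and the proteoglycan perlecan. Cells hold the matrix through integrins, receptors of 1 alpha and 1 beta chain, and remodel it with metalloproteinases, which TIMP proteins inhibit. HEK293 cells express genes of kidney and of neural lineages.

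In BDD clones more of these genes were higher than lower. Of 102 members that passed the filter on low values (all but ADAMTS16 and ITGB1BP2), 37 were higher and 8 lower than in FL clones at a limma adjusted p under 0.05. Over all 15611 genes tested, 16.1% were higher, 16.5% lower and 32.5% called in either direction. The members' share was 36.3% higher, 7.84% lower and 44.1% in all. The median log2 difference was 0.30 over the members and 0.01 over all genes. BDD clones lay wholly above FL clones for 26 members and wholly below for 5, against 10.7% and 12.0% of all genes. All differences are on the log2 scale with a prior of 2 reads, which understates the change of low genes. A gene could pass the filter on low values through clones of a single group, and the BDD group holds more clones.

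The split depended on whether trends within each clone were removed. After each clone's trends with a gene's level, base composition, length and genomic span were removed, 23 members were higher and 14 lower, so the higher share of calls fell from 82.2% to 62.2%. The same fit gave 13.6% of all genes higher and 14.2% lower, and the members' median became 0.02. Members of low and of high level both leaned up: below 2 log2 CPM 11 of 29 were higher and 1 lower (all such genes 21.2% and 4.37%), and at 4 log2 CPM and above 11 of 35 were higher and 3 lower (11.7% and 24.9%). Of the 45 calls, 23 held by library a alone and 31 by library b alone. Among named members, the calls of TIMP2, TIMP3, NID2, ITGA4, ITGB8, ITGA5 and COL11A2 were lost by each library alone. Those of LAMC1, ITGAD, COL4A3, MMP2, NID1, ADAMTS1, ADAMTS4 and ADAMTS17 were lost by library a alone. By library b alone those of COL1A1 and LOXL2 were lost. All counts below are from the fit without trend removal, and the value after removal is given where it changes a call of a named gene.

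**Figure D1:**
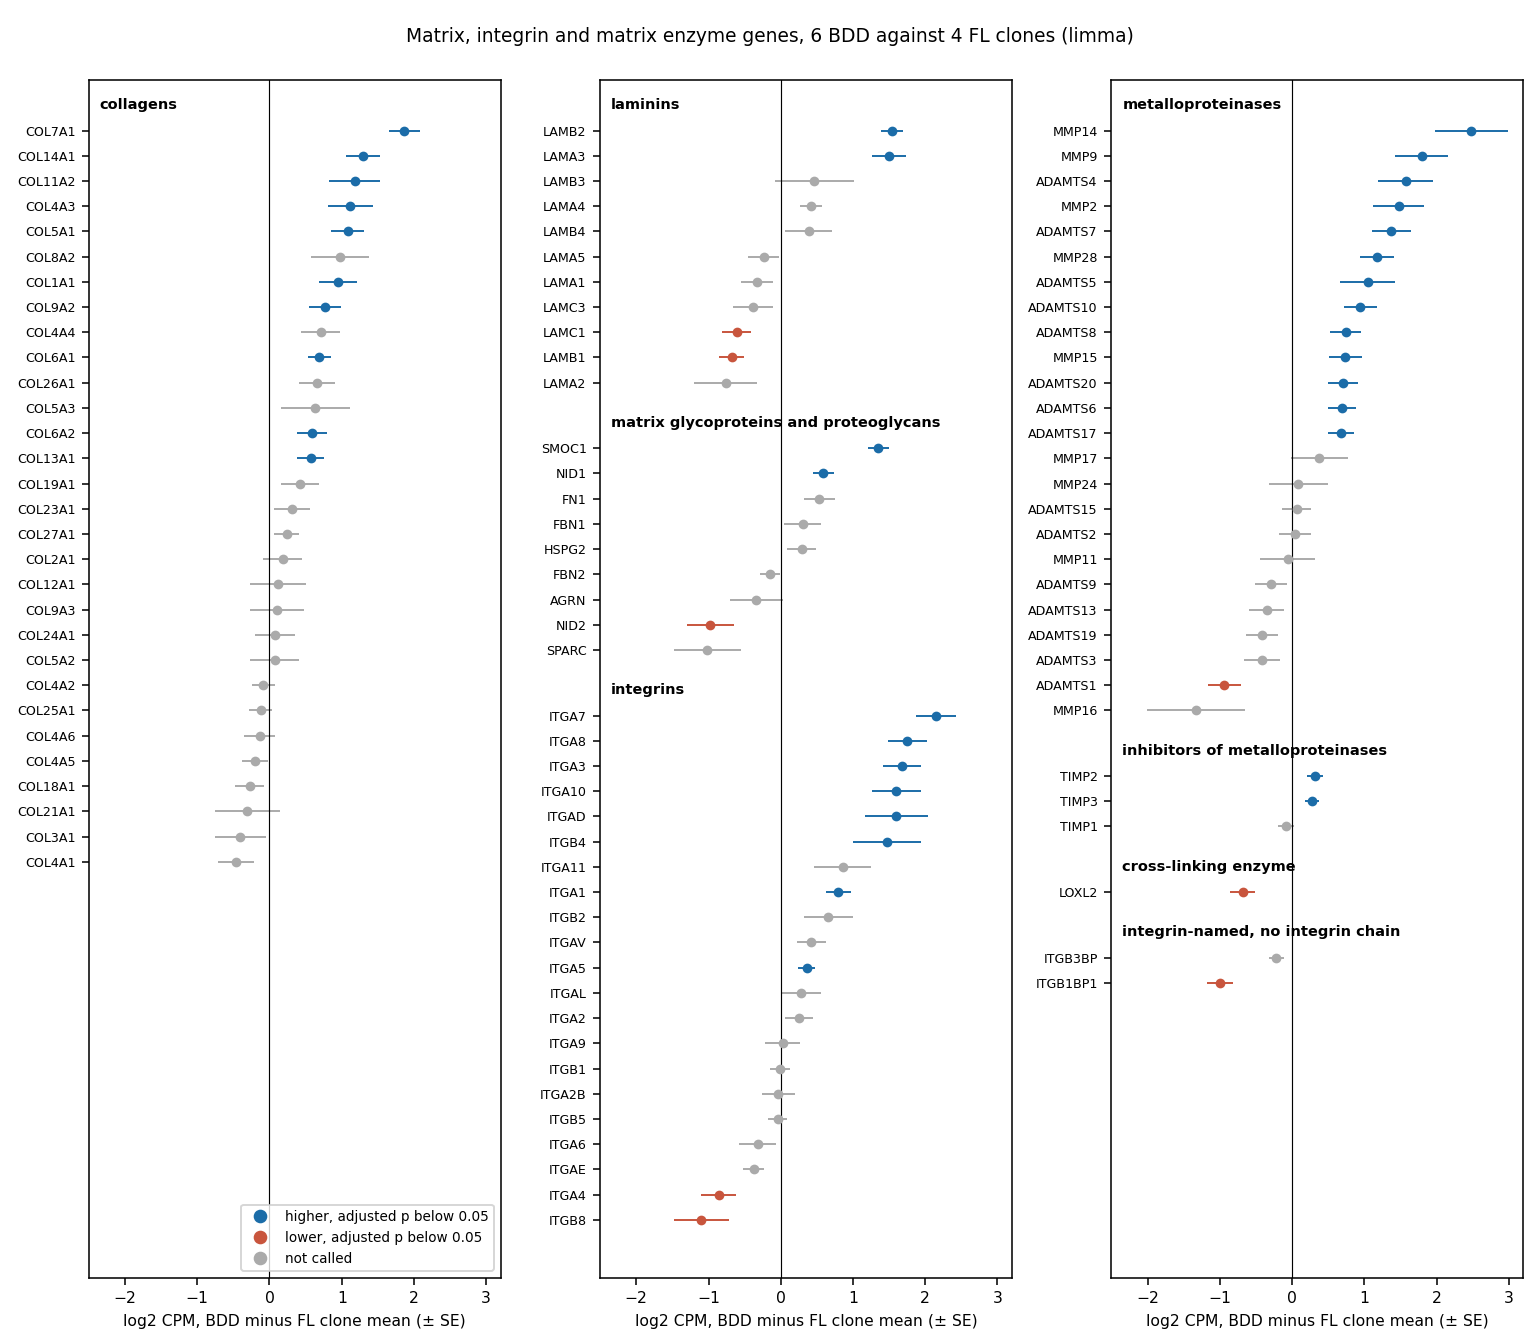
Log2 CPM in BDD minus FL clones (x axis, mean difference ± SE from limma) for the tested genes, by class and ordered by difference; blue and red mark adjusted p under 0.05. Metalloproteinases hold 13 blue and 1 red point, integrins 8 and 2, collagens 10 and 0, laminins 2 and 2. Of all genes tested 16.1% were higher and 16.5% lower.

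The calls were then read by side. Of 51 matrix genes 14 were higher and 3 lower, a median difference of 0.29; the 33.3% called lies near the 32.5% of all genes. Among 21 integrin chains 8 were higher and 2 lower (47.6% called), with a median of 0.36. Of 28 tested protease, inhibitor and cross-linking genes 15 were higher and 2 lower (60.7% called), with a median of 0.35. After trend removal the calls were 9 higher and 6 lower in the matrix, 6 and 2 among integrins, and 8 and 5 among proteases, with medians of -0.04, 0.20 and 0.30. Differences between the 3 sides were not tested.

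The summed CPM of each class is given as a description. Integrin RNA summed to 242.1 to 294.1 CPM in BDD clones and 206.7 to 230.4 CPM in FL clones, and metalloproteinase RNA to 149.4 to 167.1 and 124.8 to 131.3 CPM; neither pair of ranges overlapped. Collagen RNA reached 715.7 to 914.9 CPM in BDD and 560.7 to 754.3 CPM in FL clones, and these ranges overlapped. Laminin RNA did not separate the groups, with 248.1 to 314.6 CPM in BDD and 279.5 to 303.8 CPM in FL clones. All 51 matrix genes together summed to 1262 to 1470 CPM in BDD and 993.4 to 1236 CPM in FL clones. The 29 genes of proteases, inhibitors and cross-linking summed to 439.6 to 496.5 and 404.8 to 432.9 CPM. Neither of these pairs of ranges overlapped. HEK 28 was at 233.3 CPM for integrins, 115.2 for metalloproteinases, 686.0 for collagens and 228.4 for laminins, the metalloproteinase and laminin sums lying below all 10 clones.

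**Figure D2:**
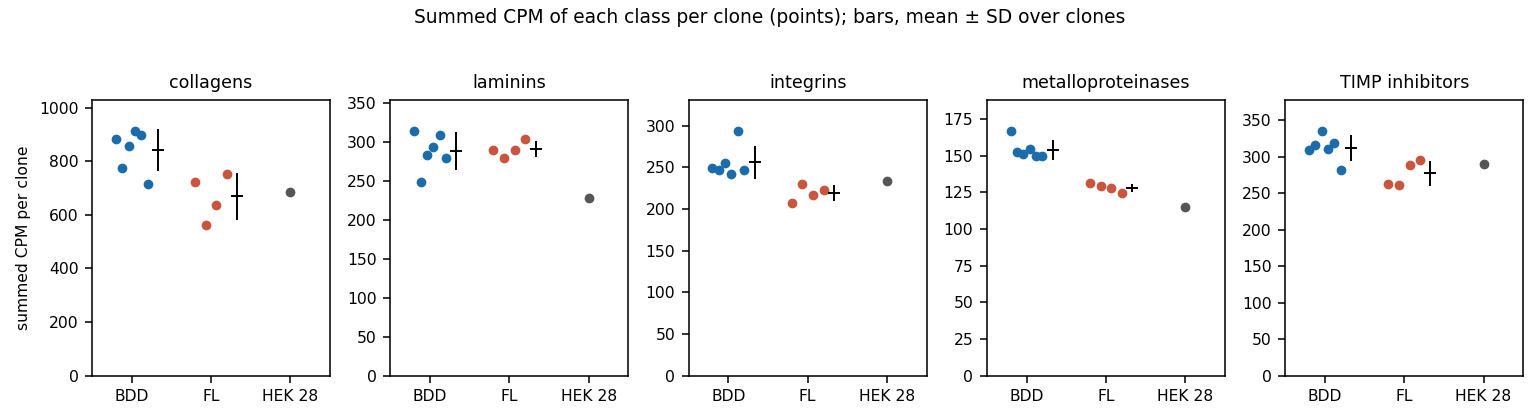
Summed CPM per clone (y axis, from 0) of 30 collagens, 12 laminins, 21 integrins, 25 metalloproteinases and 3 TIMP genes in BDD clones, FL clones and HEK 28; points are clones and bars the mean ± SD. Integrins and metalloproteinases separate the BDD from the FL clones, and the ranges of collagens, laminins and TIMP genes overlap. The sum of all matrix genes, not drawn, also separates the groups.

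Among collagens, 10 of 30 (33.3%; all genes 16.1%) were higher in BDD clones and none lower by limma. After trend removal 5 were higher and 1 lower, and the median difference went from 0.37 to 0.03. COL7A1 (ENSG00000114270), the chain of the anchoring fibrils that fasten epithelium to the tissue below, had the largest difference. It was at 2.92 to 4.04 log2 CPM in BDD clones (median 3.56) and at 1.82, 1.64, 1.71 and 1.52 in FL clones 4, 7, 9 and 10. The groups were far apart, and HEK 28 lay between them, nearer to the FL clones, at 2.05. The difference was 1.87 ± 0.22 (SE), 3.65-fold, with a limma adjusted p of 4.39e-05.

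COL14A1, a collagen that sits on fibril surfaces, was at 5.22 to 6.10 log2 CPM in BDD clones (median 5.68) and at 4.61, 4.76, 4.52 and 3.55 in FL clones. Its groups did not overlap either, with a difference of 1.29 ± 0.24 (limma adjusted p = 0.00111). COL5A1, which starts and limits fibril assembly, averaged 5.16 ± 0.35 (SD, n = 6) in BDD and 4.08 ± 0.55 (SD, n = 4) in FL clones, a difference of 1.08 (limma adjusted p = 0.00299). Its ranges overlapped, since FL clone 10 at 4.70 lay above BDD clone 2 at 4.62. COL11A2, a partner of cartilage fibrils, was higher by 1.18 (limma adjusted p = 0.0182) at low levels, but not without FL clone 7 or FL clone 9 (adjusted p up to 0.071) nor after trend removal (0.61, adjusted p = 0.244).

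COL1A1, the main chain of fibrillar type I collagen, was at 5.04, 5.19, 4.89 and 5.24 log2 CPM in BDD clones 1, 7, 12 and 13, but at 3.96 and 4.18 in BDD clones 2 and 27. FL clones 4, 9 and 10 were at 4.04, 4.07 and 3.91, so BDD clone 2 lay among them and BDD clone 27 just above, and FL clone 7 was lower at 3.17. The group difference was 0.95 ± 0.26 (limma adjusted p = 0.0131); without BDD clones 7 and 13 together it was no longer called (adjusted p = 0.0715), nor by library b alone (0.0531). COL6A1, a chain of the beaded filaments around cells, had the highest level per kilobase of exon among matrix genes, 5.04 log2 CPM per kb over all clones. It was at 7.19 to 8.10 log2 CPM in BDD clones (median 7.78) and at 7.18, 6.82, 6.89 and 7.30 in FL clones, so only BDD clone 27 fell into the FL range. The difference was 0.69 ± 0.16 (limma adjusted p = 0.004). Its neighbour and chain partner COL6A2, named after its values were seen, differed by 0.59 (limma adjusted p = 0.0441), a call lost when any of 8 clones was left out: BDD clones 1, 2, 7, 12 or 13, or FL clones 4, 7 or 9 (adjusted p up to 0.134); nor was it called after trend removal (0.36, adjusted p = 0.178).

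Type IV collagen forms the sheet of basement membranes, and its 6 chains are encoded by 3 pairs of genes that lie head to head. By the RefSeq starts of assembly GRCh38.p14, COL4A1 and COL4A2 on chromosome 13 start 126 bases apart on opposite strands, COL4A4 and COL4A3 on chromosome 2 start 418 bases apart and COL4A6 and COL4A5 on the X chromosome 379 bases apart. In GENCODE 29 the first pair overlaps, since COL4A2 begins at chr13:110305812 and COL4A1, on the minus strand, reaches to 110307233. The nearest COL4A2 exon that starts beyond COL4A1 begins at 110307236, with 2 bases between them. GGGCGG (or its complement CCGCCC) is the core of sites bound by SP1-type factors. Among FL clones both COL4A1 and COL4A2 were lowest in FL clone 7, as given below, while their highest FL clones differed. As a description of the letters, the 30 bases around the only match between the RefSeq starts of this pair are shown. They lie at chr13:110307207-110307236 (GRCh38.p14), read 5′ to 3′ on the plus strand toward COL4A2, with the match in capitals.
COL4A1-COL4A2: ccggcggtgcgcGGGCGGcgcctcaaaggg
The motif is common: 45.0% of all 35116 promoter windows of 300 bases in the RefSeq table hold it on either strand, as do 59 of 90 windows (65.6%) of the 72 members matched there. By GENCODE 29 the match shown lies within the span of COL4A1. It was not tested against the RNA of either gene.

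Only COL4A3 of these 6 genes was called between the groups, at low levels of 0.21 to 1.54 log2 CPM in BDD clones (median 0.85) and -0.45, -0.01, -0.16 and -0.28 in FL clones. The difference was 1.12 ± 0.31 (limma adjusted p = 0.0126) and was not called after trend removal (0.55, adjusted p = 0.18) or without BDD clones 7 and 13 (0.0552). COL4A3 was below 0 log2 CPM in every FL clone and passed the filter through BDD clones alone. Its head-to-head partner COL4A4 differed by 0.71 (limma adjusted p = 0.0541). COL4A1 was at 4.45 to 5.57 log2 CPM in BDD clones (median 4.92) and COL4A2 at 6.33 to 6.83 (median 6.49). Their group differences of -0.46 (limma adjusted p = 0.162) and -0.09 (0.707) did not pass the test. The remaining X-linked pair, COL4A5 and COL4A6, gave -0.20 and -0.14, also short of the threshold (limma adjusted p = 0.403 and 0.653).

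Of 12 laminins 2 were higher and 2 lower (16.7% each), near the 16.1% and 16.5% of all genes. LAMB2 (ENSG00000172037), the laminin beta 2 chain of the glomerular and neuromuscular basement membranes, was at 5.83 to 6.38 log2 CPM in BDD clones (median 6.11) and at 4.35, 4.59, 4.36 and 5.00 in FL clones. All BDD clones lay above all FL clones, and HEK 28 lay between them at 5.14. The difference of 1.55 ± 0.15, or 2.92-fold, had the smallest adjusted p of any member (limma adjusted p = 1.48e-05). LAMB1 (ENSG00000091136), the widely expressed beta 1 chain, went the other way: 5.10 to 5.90 log2 CPM in BDD clones (median 5.56) against 6.39, 5.92, 6.09 and 6.39 in FL clones. The ranges nearly met without overlapping, and the difference was -0.68 ± 0.17 (limma adjusted p = 0.00834); with HEK 28 counted as an FL clone it was not called (0.06).

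The bases before the outermost GENCODE 29 start of both beta chain genes, taken from their RefSeq windows, are shown side by side because the RNAs moved in opposite directions. Both are 120 bases long and read 5′ to 3′ on the gene's own strand, which is the minus strand for LAMB1 (chr7:108003256-108003375) and LAMB2 (chr3:49133119-49133238) alike, in assembly GRCh38.p14. Capitals mark GGGCGG or CCGCCC.
LAMB1: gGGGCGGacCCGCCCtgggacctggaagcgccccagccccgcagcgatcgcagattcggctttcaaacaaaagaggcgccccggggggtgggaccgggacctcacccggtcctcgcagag
LAMB2: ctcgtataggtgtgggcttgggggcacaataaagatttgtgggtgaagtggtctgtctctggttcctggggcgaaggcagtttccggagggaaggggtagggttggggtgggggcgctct
LAMB1 holds 2 matches and LAMB2 holds 0 in these stretches; a match is a description of the letters and was not tested against the RNA.

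Because either beta chain can take the beta place in a laminin, their ratio was also read per kilobase of exon, as a description chosen after the values were seen. The log2 ratio of LAMB2 to LAMB1 was 1.15, 0.98, 0.51, 0.54, 0.80 and 1.10 in BDD clones 1, 2, 7, 12, 13 and 27. In FL clones 4, 7, 9 and 10 it was -1.79, -1.08, -1.48 and -1.14, and in HEK 28 it was 0.08. LAMB2 was thus the more abundant beta chain RNA in every BDD clone, LAMB1 in every FL clone, and HEK 28 held nearly equal levels.

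LAMA3, an alpha chain typical of epithelial basement membranes, was at 3.62 to 4.42 log2 CPM in BDD clones (median 3.73) and 2.11, 2.12, 2.31 and 3.09 in FL clones, a difference of 1.50 ± 0.24 (limma adjusted p = 0.00043). The groups did not overlap, although FL clone 10 came closer than the other FL clones. LAMB3, a beta chain that pairs with it in epithelial laminin, was low and did not pass the test (0.46, limma adjusted p = 0.544). The RefSeq window of LAMA3 belongs to a start inside the gene, which GENCODE 29 places at chr18:23689443-23956222 on the plus strand, so these gene-level values also count transcripts from other starts. It was 1 of 3 member windows among 90 (3.33%), with those of LAMB3 and ITGA5, that hold TGANTCA, the AP-1 motif. Of all windows 7.71% hold it, a larger share than among the members. LAMA3 has it at 2 places before this internal start, inside an exon that GENCODE 29 annotates, printed with 9 bases on each side and the motif in capitals (plus strand).
LAMA3, chr18:23872886-23872910: ggcacaggcTGACTCAtgtgtgaag
LAMA3, chr18:23872942-23872966: ttcctcaccTGAGTCAggcaggccc
LAMC1, the gamma chain shared by most laminins, was at 5.22 to 6.45 log2 CPM in BDD clones and 6.20, 6.38, 6.59 and 6.07 in FL clones. Only BDD clone 27, at 6.45, lay among the FL clones. Its difference of -0.61 (limma adjusted p = 0.0292) was lost without any one of BDD clones 7, 12 or 13 or FL clones 7 or 9 (adjusted p up to 0.103).

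Of the 9 matrix glycoproteins and proteoglycans, 2 were higher and 1 lower (33.3% called, near the 32.5% of all genes). SMOC1 (ENSG00000198732), a calcium-binding protein of basement membranes, was at 6.47 to 7.03 log2 CPM in BDD clones (median 6.63) and 5.00, 5.23, 5.74 and 5.34 in FL clones, with HEK 28 below all of them at 4.56. The difference was 1.35 ± 0.15 (limma adjusted p = 2.27e-05), and the groups were separate. The nidogens, which link laminin to type IV collagen, were called in opposite directions. NID1 was at 4.97 to 5.63 log2 CPM in BDD clones and 4.41, 4.70, 4.73 and 4.85 in FL clones (0.59 ± 0.15, limma adjusted p = 0.00795; 0.0564 by library a alone). NID2 was at 0.41 to 2.27 log2 CPM in BDD clones and 2.28, 2.40, 3.00 and 2.74 in FL clones (-0.97 ± 0.33, limma adjusted p = 0.0325). The lowest value is that of BDD clone 2, whose libraries a and b held 23 and 0 reads of NID2. The NID2 call was lost without BDD clone 7 or 13 or FL clone 9 or 10 (adjusted p up to 0.109), and 30.0% of its exon bases overlap RTRAF on the opposite strand, whose reads cannot be told apart because no strand setting is given in the sources used here.

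The other listed matrix genes did not pass the test. FN1, fibronectin, was at 4.80 to 5.53 log2 CPM in BDD clones (median 5.10) and 5.02, 3.87, 4.81 and 4.87 in FL clones, the low value being FL clone 7 (0.53, limma adjusted p = 0.0671). SPARC, a matricellular glycoprotein that binds collagen, spread widely within both groups, from 0.36 to 2.62 in BDD clones and at 1.53, 3.57, 2.95 and 2.35 in FL clones (-1.02, limma adjusted p = 0.109). The fibrillins FBN1 and FBN2, the microfibril proteins, gave 0.30 and -0.15 (limma adjusted p = 0.386 and 0.45). The heparan sulfate proteoglycans perlecan (HSPG2) and agrin (AGRN) gave 0.29 and -0.34 (limma adjusted p = 0.281 and 0.508).

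Of 16 integrin alpha chains, which largely set the ligand, 7 were higher and 1 lower (43.8% and 6.25%). Of 5 beta chains 1 was higher and 1 lower (20.0% each), near the 16.1% and 16.5% of all genes. ITGA7 (ENSG00000135424), the alpha chain of a laminin receptor, was at 3.63 to 4.38 log2 CPM in BDD clones (median 3.98) and at 1.11, 2.66, 1.35 and 2.10 in FL clones. The nearest clones of the groups were BDD clone 2 at 3.63 and FL clone 7 at 2.66, and the difference was 2.15 ± 0.28, 4.44-fold (limma adjusted p = 8.55e-05). ITGA3, the alpha chain of another laminin receptor, was at 2.38 to 3.21 log2 CPM in BDD clones (median 2.96) and 1.27, 0.66, 1.15 and 1.81 in FL clones (1.68 ± 0.26, limma adjusted p = 0.000323). Its groups did not overlap, and HEK 28 at 1.94 lay between them. The third laminin-binding alpha chain, ITGA6, was not called (-0.32, limma adjusted p = 0.361).

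ITGA8, whose receptor binds nephronectin and fibronectin in the developing kidney, was at 2.14 to 3.06 log2 CPM in BDD clones (median 2.35) and 0.07, 1.11, 0.79 and 0.82 in FL clones, without overlap (1.75 ± 0.27, limma adjusted p = 0.000362). Of the 4 collagen-binding alpha chains, ITGA10 was at 0.67 to 1.89 log2 CPM in BDD clones and -0.05, -0.93, -0.13 and -0.65 in FL clones (1.60, limma adjusted p = 0.00249). The FL libraries held 0 to 4 reads of ITGA10, near the detection limit. With every FL clone below 0 log2 CPM, ITGA10 passed the filter through BDD clones alone. ITGA1, named after its values were seen, was at 3.44 to 4.02 log2 CPM in BDD and 2.82, 2.77, 3.02 and 2.96 in FL clones (0.80, limma adjusted p = 0.00326). ITGA2 and ITGA11 did not pass (0.25 and 0.86, limma adjusted p = 0.348 and 0.108). ITGAD, best known from leukocytes, was higher by 1.60 near the detection limit (limma adjusted p = 0.0114), but not after trend removal (adjusted p = 0.054) or without BDD clones 7 and 13 (0.0549). ITGA5, the fibronectin receptor's alpha chain, had a narrow spread, 4.77 to 4.99 log2 CPM in BDD clones and 4.44, 4.46, 4.63 and 4.64 in FL clones. Its groups did not overlap and the difference was 0.36 (limma adjusted p = 0.0318), lost without BDD clone 7 or 13 or FL clone 4, 7 or 9 (adjusted p up to 0.0909).

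ITGA4, the alpha chain that binds fibronectin and VCAM1, was lower: 1.49 to 2.72 log2 CPM in BDD clones (median 2.16) against 3.00, 3.17, 3.18 and 2.88 in FL clones. No clone overlapped, and the difference was -0.86 ± 0.24 (limma adjusted p = 0.0128), not called by library a alone (0.113) or library b alone (0.0508). ITGB8, a beta chain that activates latent TGF-beta with alpha V, was near the detection limit in BDD clones, from -1.14 to 0.36, and at 0.01, 1.41, 0.99 and 0.95 in FL clones (-1.10, limma adjusted p = 0.0382). That call was lost without any one of BDD clones 2, 13 or 27 or FL clones 7, 9 or 10 (adjusted p up to 0.118). ITGB1, the common partner of most of these alpha chains, was at 3.99 to 4.34 log2 CPM in BDD clones and 4.02, 4.45, 4.16 and 4.19 in FL clones, a difference of -0.01 ± 0.14 (limma adjusted p = 0.965). ITGB5, with the highest level per kilobase of exon of the integrin chains (3.07 log2 CPM per kb), differed by -0.04 ± 0.13 (limma adjusted p = 0.83). ITGB4, the partner of ITGA6 in hemidesmosomes, differed by 1.47 (limma adjusted p = 0.0261), lost without BDD clone 12 or 13 or FL clone 4 (adjusted p up to 0.0976) and after trend removal (0.88, adjusted p = 0.161).

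ITGB1BP1, a cytoplasmic adaptor that binds the beta 1 tail and is no integrin, was at 3.81 to 4.83 log2 CPM in BDD clones and 5.26, 5.59, 5.67 and 5.41 in FL clones (-0.998 ± 0.18, limma adjusted p = 0.000858). The groups did not overlap, but 33.1% of its exon bases are shared with ASAP2 on the opposite strand. ITGB3BP, a centromere protein also named for an integrin, gave -0.22 (limma adjusted p = 0.111).

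**Figure D3:**
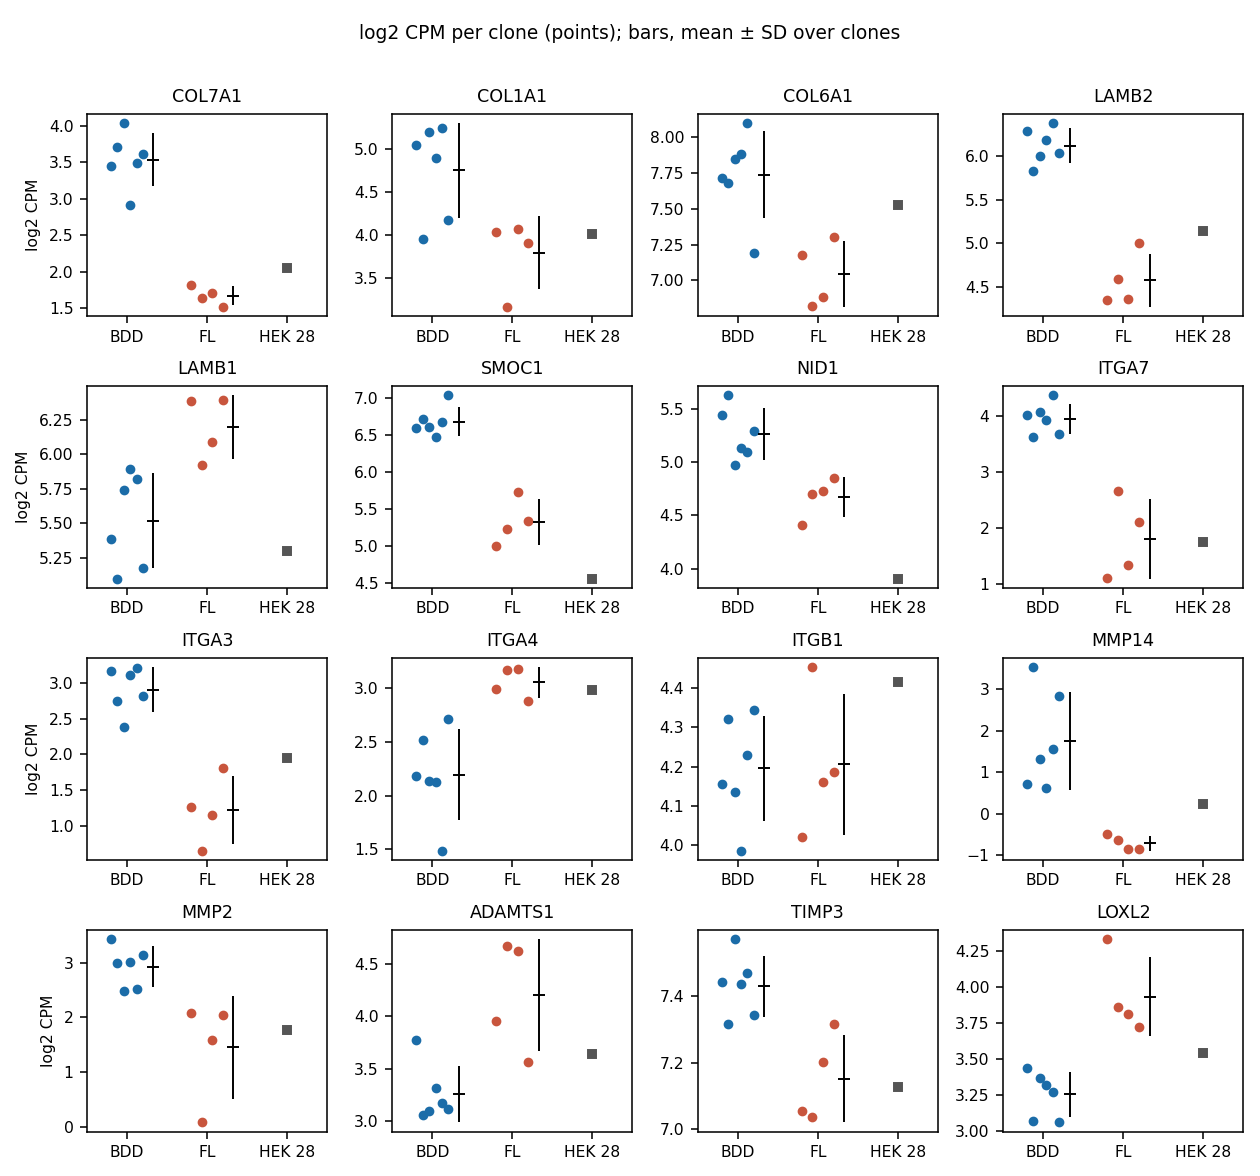
Log2 CPM (y axis, each panel with its own range) of 16 genes in each BDD clone, FL clone and HEK 28; points are clones and bars the mean ± SD. BDD clones lie wholly above FL clones for COL7A1, LAMB2, SMOC1, NID1, ITGA7, ITGA3, MMP14 and MMP2, wholly below for LAMB1, ITGA4 and LOXL2, and among them for ITGB1.

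Of 9 tested MMP genes 5 were higher and none lower by limma (all genes 16.1% and 16.5%). MMP14, the membrane-bound protease that activates MMP2 and cleaves fibrillar collagen, had the largest difference of all members. It was at 0.71, 3.54, 1.31, 0.62, 1.56 and 2.85 log2 CPM in BDD clones 1, 2, 7, 12, 13 and 27 and at -0.50, -0.63, -0.87 and -0.86 in FL clones 4, 7, 9 and 10. BDD clones 2 and 27 were the highest, and every BDD clone lay above every FL clone and above HEK 28 at 0.23. The difference was 2.48 ± 0.50, or 5.58-fold (limma adjusted p = 0.00209). MMP14 was near the detection limit in FL clones, whose libraries held 0 to 6 reads of it, and BDD clones 1 and 12 held 4 to 9 reads per library. Below 0 log2 CPM in every FL clone, it passed the filter through BDD clones alone. Its call, rank and lack of overlap are therefore given as a description.

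MMP2, a gelatinase, was at 2.48 to 3.43 log2 CPM in BDD clones (median 3.00) and 2.09, 0.09, 1.59 and 2.05 in FL clones, FL clone 7 again being far below (1.47 ± 0.35, limma adjusted p = 0.00582; 0.0556 by library a alone). MMP9, the other gelatinase, was low, at 0.37 to 1.54 log2 CPM in BDD clones and -1.45, -0.93, -1.16 and 0.02 in FL clones (1.79, limma adjusted p = 0.00204); FL clone 4 held no read of it. An antisense RNA, SLC12A5-AS1, covers 18.4% of its exon bases. MMP28 and MMP15, named after their values were seen, were higher by 1.18 and 0.74 (limma adjusted p = 0.00163 and 0.0226), MMP15 not without BDD clone 7 or FL clone 10 (adjusted p up to 0.0568) nor after trend removal (0.38, adjusted p = 0.197).

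Of 15 tested ADAMTS genes 8 were higher and 1 lower (all genes 16.1% and 16.5%). After trend removal 2 were higher and 4 lower (all genes 13.6% and 14.2%). ADAMTS7, which cleaves cartilage oligomeric matrix protein, was at 1.60 to 2.72 log2 CPM in BDD clones (median 2.45) and 0.48, 1.14, 1.11 and 1.15 in FL clones, without overlap (1.37 ± 0.27, limma adjusted p = 0.00163). ADAMTS4, an aggrecanase, was at 0.80 to 2.92 in BDD clones and 0.87, -0.04, 0.88 and 0.81 in FL clones; only BDD clone 2 lay among the FL clones (1.58, limma adjusted p = 0.00611; 0.0571 by library a alone). ADAMTS17 was higher by 0.68 (limma adjusted p = 0.0108) but not after trend removal (0.23, adjusted p = 0.298) or by library a alone (0.112). ADAMTS1, which cleaves versican and aggrecan, was the ADAMTS gene called lower: 3.06 to 3.78 log2 CPM in BDD clones (median 3.15) against 3.95, 4.67, 4.62 and 3.57 in FL clones. BDD clone 1 at 3.78 reached into the FL range, and the difference was -0.94 ± 0.23 (limma adjusted p = 0.00654), not called by library a alone (0.109) or with BDD clone 2 by its library a alone (0.0609).

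The inhibitors were among the most abundant members per kilobase of exon, TIMP1 at 5.94 and TIMP3 at 5.12 log2 CPM per kb. TIMP3, the inhibitor that binds to the matrix, was at 7.31 to 7.57 log2 CPM in BDD clones (median 7.44) and 7.05, 7.04, 7.20 and 7.31 in FL clones, ranges that touched, with a difference of 0.28 ± 0.10 (limma adjusted p = 0.0431). TIMP2, which also takes part in MMP2 activation by MMP14, gave 0.32 ± 0.12 (limma adjusted p = 0.0482). Leaving out any one of 7 clones for TIMP3 (BDD 1, 7, 12 or 13, FL 4, 7 or 9) and of 8 for TIMP2 (BDD 1, 2, 7, 12 or 13, FL 7, 9 or 10) ended these calls, with adjusted p up to 0.122 and 0.13. TIMP1 gave -0.08 (limma adjusted p = 0.617). LOXL2, which oxidises lysines so that collagen chains can be cross-linked, was at 3.06 to 3.43 log2 CPM in BDD clones (median 3.29) and 4.33, 3.86, 3.81 and 3.72 in FL clones, with HEK 28 between them at 3.54. No clone overlapped, and the difference was -0.68 ± 0.17 (limma adjusted p = 0.00804). It was -0.99 by library a alone and -0.37 by library b alone, where it was not called (adjusted p = 0.241).

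Genes that work beside these members, in lists set apart from them, were called as follows, to be read against 16.1% higher and 16.5% lower over all genes. Of 24 enzymes of collagen modification and cross-linking 3 were higher and 5 lower: the lysyl oxidase LOXL4 (1.83, limma adjusted p = 0.000786) and the prolyl hydroxylase P3H2 (1.02, 0.00201) were higher, and the procollagen chaperones FKBP10 (-0.70, 0.00324) and CRTAP (-0.69, 0.00541) lower. After trend removal 3 were higher and 3 lower. Of 33 other matrix glycoproteins and proteoglycans 7 were higher and none lower by limma, led by LTBP4 (1.49, limma adjusted p = 9.4e-05) and MFGE8 (1.10, 0.000167), an integrin ligand; after trend removal 4 were higher and none lower. Among 15 other matrix receptors 3 were higher and 3 lower; the collagen receptors DDR1 (0.99, limma adjusted p = 0.000145) and DDR2 (2.02, 0.000882) were higher, and the hyaluronan receptor CD44 was lower (-1.52, 0.000139); after trend removal the list had 4 higher and 3 lower. Of 29 integrin adaptor and focal adhesion genes 3 were higher, with NEDD9 at 1.83 (limma adjusted p = 0.000437) and TGFB1I1 at 1.30 (0.000859), and 2 lower, against 3 higher and 5 lower after trend removal. The list of 24 other proteases and inhibitors had 4 higher and none lower by limma, with SERPINE2 at 0.78 (limma adjusted p = 0.00347), but 2 higher and 3 lower after trend removal. Of 13 TGF-beta pathway genes 1 was called, TGFB1 (0.98, limma adjusted p = 0.00264), against 3 higher and 1 lower after trend removal.

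Clones within a group also differed from one another. An F test of the clones against their libraries called 4 members among BDD clones (1.43% of all genes) and 16 among FL clones (8.94% of all genes). Its error is the spread between libraries a and b, which may be technical and leave out the spread between cultures of a clone. In the BDD group these were MMP16, COL2A1, COL1A1 and COL9A3. MMP16, a membrane-bound MMP, was at 3.13, 2.10, -0.36, 3.61, 0.54 and -0.15 log2 CPM in BDD clones 1, 2, 7, 12, 13 and 27 (limma F test adjusted p = 0.00324). Clones 1, 2 and 12 thus lay near the FL clones, at 2.66, 3.52, 2.93 and 2.10, and clones 7, 13 and 27 were near the detection limit; the difference between groups was -1.33 (limma adjusted p = 0.149). COL2A1, the fibrillar collagen of cartilage, was lowest in BDD clones 7 and 13, at 4.82 and 4.87 log2 CPM, and at 5.56 to 6.13 in the other BDD clones (limma F test adjusted p = 0.0107). COL9A3, which decorates type II collagen fibrils, was at 4.22 and 4.42 in BDD clones 2 and 27 and at 5.46 to 6.16 in the others (limma F test adjusted p = 0.0446). Without BDD clone 2 the test called 8 members, and without BDD clone 7 or without clones 7 and 13 it called 1.

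Among FL clones, 10 collagens were in the set, with the laminins LAMA2 and LAMB3, FN1, SPARC, ITGAL and ADAMTS13. FL clone 7 was the lowest FL clone for 8 of the 16 and the highest for 6. COL4A1 was at 6.00, 4.56, 5.46 and 5.66 log2 CPM in FL clones 4, 7, 9 and 10 (limma F test adjusted p = 0.00195), and COL4A2 at 6.78, 6.15, 6.53 and 7.01 (0.00847). Both genes of this head-to-head pair were thus lowest in FL clone 7, while the COL4A2 to COL4A1 ratio per length was highest there (log2 ratio 1.20, against 0.39 to 0.96 in the other FL clones). COL3A1, the fibrillar type III chain, was at 3.86, 1.66, 3.66 and 3.18 (limma F test adjusted p = 0.00565), and LAMA2, the alpha chain of muscle and nerve laminins, went the other way at 1.62, 4.24, 2.61 and 1.99 (0.00568). LAMA2 did not pass the test between BDD and FL clones (-0.76, limma adjusted p = 0.19) except after trend removal (-1.33, adjusted p = 0.0331). SPARC and ITGAL were also highest in FL clone 7. Without FL clone 7 the F test among FL clones called 1 member, and 0.98% of all genes.

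**Figure D4:**
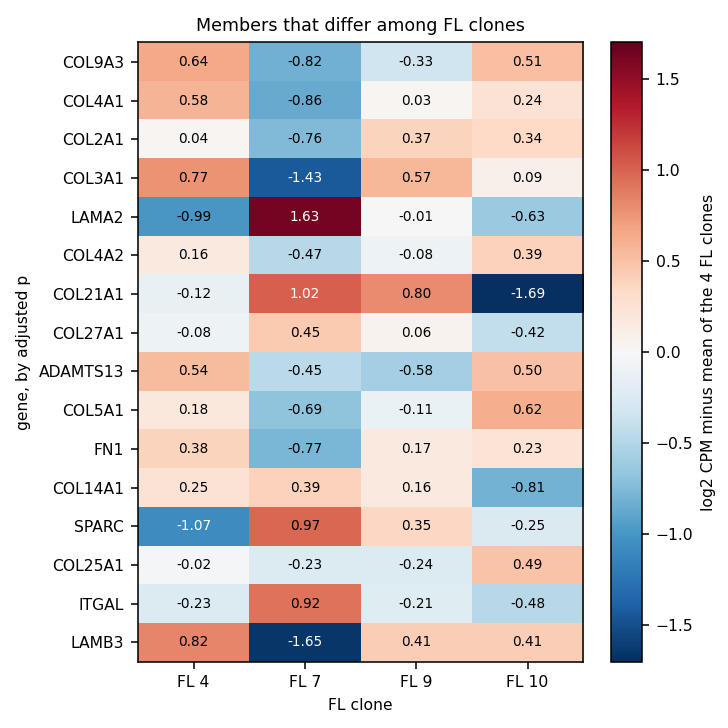
Log2 CPM minus the mean of the 4 FL clones (colour and printed value) for the 16 genes called by the F test among FL clones, ordered by adjusted p. FL clone 7 holds the lowest value in 8 rows, among them COL4A1 and COL4A2, and the highest in 6, among them LAMA2 and SPARC.

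HEK 28 was nearer to the FL mean than to the BDD mean for 65 of 102 members (63.7%; all genes tested 65.4%). Over the 45 members called between BDD and FL it was nearer to FL for 29 (64.4%), and over all 5080 genes called 78.9% were. It lay below all 10 clones for 18 members (17.6%), against 9.01% of all genes, and above all of them for 4 (3.92%, against 8.32%). NID1 at 3.91 and SMOC1 at 4.56 log2 CPM were below every clone of either group. One line allows no test of these positions.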

How the data were processed

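Total RNA was sequenced in 22 libraries, 2 from each of 6 BDD clones, 4 FL clones and the HEK 28 line. Per the submitters' processing notes, the tools were cutadapt, FastQC, Bowtie and TopHat2 and the build hg38, without versions. What counted the reads, with which annotation and strand setting, is not given in the sources used here. Deposited by the authors were log2 CPM values for 15797 genes. From the values, each library steps in whole reads (100% within a tolerance of 0.01) above a floor of -1.45 log2 CPM, a prior of 2 reads. Recovered reads numbered 4951081 to 6197084 per library, and their number limits the precision of low genes.

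Libraries a and b were averaged per clone. Genes at 0 log2 CPM or above in at least 4 of 10 clones were kept (15611), and BDD and FL clones were compared by limma 3.58.1 (trend option, R 4.3.3) with Benjamini-Hochberg adjustment over all of them, the threshold being 0.05. A limma F test over libraries asked whether clones of a group differ beyond the spread of their libraries a and b. The fits were tested on simulated data. Gene positions and exon lengths are from GENCODE 29; promoter sequences are from RefSeq on GRCh38.p14, matched by symbol for 72 of 104 members. Libraries of both groups carry the letters a and b, which the labels do not tie across clones.

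The members and the lists of other genes were chosen with earlier results of these data known. Named are the 10 members listed by symbol; in each class the 5 highest and 5 lowest differences among called members and the 3 of highest level; the 5 members of smallest F test p in each group; and up to 3 called genes of smallest p in each other list. Others are said to be chosen after their values were seen, or fill out a chain family. Alternatives were other scalings, priors, filters and units, limma-voom on recovered reads, removal of per-clone trends, and each clone left out. One member is counted but not reported by name here.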

Additional observations from a re-analysis of the deposited data

Results flagged for a closer look

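Single clones stood far from the rest of their group for 5 of the 104 groups examined (52 named members in BDD and in FL clones), and chance flags about 1 in 20 groups. ITGB1BP1 was at 3.81 log2 CPM in BDD clone 2, against 4.49 to 4.83 in the other BDD clones. Its libraries a and b there differed, at 4.42 (108 reads) and 3.21 (43 reads). HSPG2 was at 4.20 in BDD clone 27, against 4.80 to 5.14. ADAMTS1 was at 3.78 in BDD clone 1, against 3.06 to 3.32. ADAMTS7 was at 0.48 in FL clone 4, against 1.11 to 1.15 in the other FL clones. ADAMTS4 was at -0.038 in FL clone 7, against 0.81 to 0.88, from 7 reads in library a and 1 in library b.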

How the results depend on the processing

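By library a alone 20 members were higher and 3 lower, with 10 matrix, 5 receptor and 7 protease calls. By library b alone 4 were lower and 11 proteases were called. Without BDD clones 7 and 13 there were 5 lower, 10 matrix calls and 1 call among BDD clones. With per-clone trends removed 23 were higher and 14 lower, and the matrix median was -0.038. A filter at a mean of 1 log2 CPM left 6 receptor calls, and BDD clone 2 by library a alone gave 5 lower. Leaving out each clone gave 5 to 9 lower, 11 to 18 matrix calls, 1 to 8 calls among BDD clones and 1 to 14 among FL clones. The cause of these shifts was not tested. Apart from trend removal and the F test without FL clone 7, no share over all genes is given for these fits. Their counts describe the stability of the calls only. Of the 45 calls, 30 held in all 10 fits without 1 clone, 31 with trends removed and 43 with limma-voom. The letters a and b share only a name. A fit with them as a replicate block gave 42 members higher and 11 lower. It took each library as a unit, so the 2 libraries of a clone counted as separate replicates. Its p-values therefore do not measure the spread between clones, and no share over all genes is given for it.

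Over the named members' alternatives, 1222 values kept direction and side of the threshold, 88 lost and 18 gained a call, and 17 changed sign, none of them a called member. Those were ITGB5 with library totals (0.0063) and over single clones left out (-0.088 to 0.035, the last without BDD clone 27); TIMP1 by library a alone (0.013) and with trends removed (0.096); HSPG2 (-0.027) and FBN1 (-0.0058) with trends removed; AGRN by library b alone (0.15); COL2A1 without FL clone 7 (-0.068, against up to 0.32); COL4A2 without BDD clones 7 and 13 (0.0096) and without FL clone 10 (0.046, against as low as -0.24); and COL9A3 by library b alone (-0.034), with HEK 28 as an FL clone (-0.044), without BDD clones 7 and 13 (-0.075), and over single clones left out (-0.17 to 0.33).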
